A study of Homo sapiens with 9 samples.

Results

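F-box genes encode the substrate-binding subunits of SCF ubiquitin ligases, and 61 of them, of 22465 genes with a single symbol, were followed across 9 arrays of cells exposed to okadaic acid. The members were taken by symbol (FBXW, FBXL or FBXO followed by a number, with or without a letter) and each gene was represented by its probe set with the highest mean. The family was chosen by the log2 intensity of FBXW8, whose values at 20 nM had been seen to fall below those of untreated cells, so the changes of FBXW8 are described here and nothing is drawn from its place past a threshold. Counts of the family are therefore also given over the other 60 members. By the naming of the family, 10 members are FBXW genes, whose proteins carry WD40 repeats, 17 are FBXL genes with leucine-rich repeats, and 34 are FBXO genes with other or no known domains. FBXL2, FBXO9 and FBXO17 have no probe set of their own symbol alone and were not analysed here. All 61 symbols were found in RefSeq, where FBXL21P and FBXL9P are pseudogenes.

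The arrays hold RNA from cells labelled SH-SY5Y, a human neuroblastoma line, in 3 groups of 3 arrays each: untreated cells, cells given okadaic acid at 20 nM and cells given okadaic acid at 60 nM, all for 12 h in medium with reduced serum. Okadaic acid is a marine toxin that inhibits the serine/threonine phosphatases PP2A and PP1. For the arrays at 60 nM, 1 label field reads 20 nM, whereas the titles, the source names and the design text give 60 nM, which was used. The labels call the replicates biological without saying that they were separate cultures, and p-values therefore describe only how these arrays vary, which may be technical. Precision is limited by having 3 arrays in each group.

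An SCF ligase joins the adaptor SKP1, the scaffold cullin 1 and a RING subunit, RBX1, which brings in a ubiquitin-conjugating enzyme. The F-box protein binds SKP1 through its F-box motif and the substrate through its other domains, so that each F-box protein directs its own set of substrates. Many F-box proteins, FBXW7 and FBXW11 among them, bind their substrates only after these have been phosphorylated on serine or threonine. Attachment of NEDD8 to the cullin activates the ligase, and the COP9 signalosome removes it.

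Values below are log2 intensities, and a background level of 5.82 was set by the 95th percentile of 23 background probe sets. Of the 61 members, 40 had a mean above that level in at least 1 group. The other 21 stayed at background in all groups, and their log2 changes at 60 nM lay between -0.05 and 0.08. They are FBXL6, FBXL7, FBXL8, FBXL9P, FBXL13, FBXL15, FBXL16, FBXL22, FBXO2, FBXO15, FBXO24, FBXO39, FBXO40, FBXO41, FBXO43, FBXO47, FBXO48, FBXW9, FBXW10, FBXW10B and FBXW12. FBXW10 and FBXW10B are near-identical copies, so the signal of each is uncertain. Array medians lay between 4.36 and 4.51, and the within-group correlation of arrays over genes above background was at least 0.985. Of the markers of noradrenergic neuroblastoma, 2 of 12 measured (GATA2 and GATA3) were above background in untreated cells, while TH (4.57), DBH (4.22) and PHOX2A (3.49) were not. Of the mesenchymal markers 5 of 7 were above background, of the epithelial ones 3 of 6 (KRT8, KRT18 and KRT19), of the leukocyte ones 0 of 4 and of the Schwann and glial ones 0 of 3.

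At 60 nM, 20 of the 60 F-box genes other than FBXW8 differed from untreated cells by limma (adjusted p under 0.05 over all genes), 7 of them higher and 13 lower. That is 33.3% of them, where over all genes tested 21.2% were called, 7.94% higher and 13.2% lower. With FBXW8, which lay past the threshold too, the count is 21 of 61. The members hold more genes above background than the table does: 39 of 61 had an untreated mean above it, against 9793 of 22465 genes. Among the 9784 genes with a mean of all arrays above background, 40.5% were called, 14.5% higher and 26.1% lower. Of the 38 members above background by that mean, FBXW8 included, 20 were called (52.6%), 18.4% higher and 34.2% lower. Nothing particular to the family is read from its share. The median log2 change was -0.01 over the members and 0.00 over all genes. In bulk RNA, fewer cells with a transcript and less of it per cell cannot be told apart. Groups of arrays that did not overlap were more frequent than calls. Of the 60 members other than FBXW8, 26 had such groups (27 of 61 with it), 8 higher and 18 lower. Over all genes 33.3% had such groups, as did 5680 of the 9784 above background. Of the 38 members above background by the same mean, FBXW8 included, 25 did.

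At 20 nM, limma called 0 of the 60 members other than FBXW8, with 3 at an unadjusted p under 0.05, against 4.98% of all genes. FBXW8, whose fall at this dose chose the family, is 1 of the 5 genes of 22465 past the threshold (0.0223%, and 0.0089% lower), and nothing is read from that. The log2 changes of these 60 members lay between -0.27 and 0.13. Of these 60, 5 had groups that did not overlap, all lower at 20 nM: FBXO42, FBXO4, FBXL20, FBXL5 and FBXO36. The groups of FBXW8 did not overlap either, and nothing is read from that, as its fall chose the family. Over all genes 6.01% had such groups, as did 864 of the 9784 genes with a mean of all arrays above background. Of the 60 members, FBXL5 alone was called at 20 nM in any alternative run, on leaving out untreated replicate 3.

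**Figure D1:**
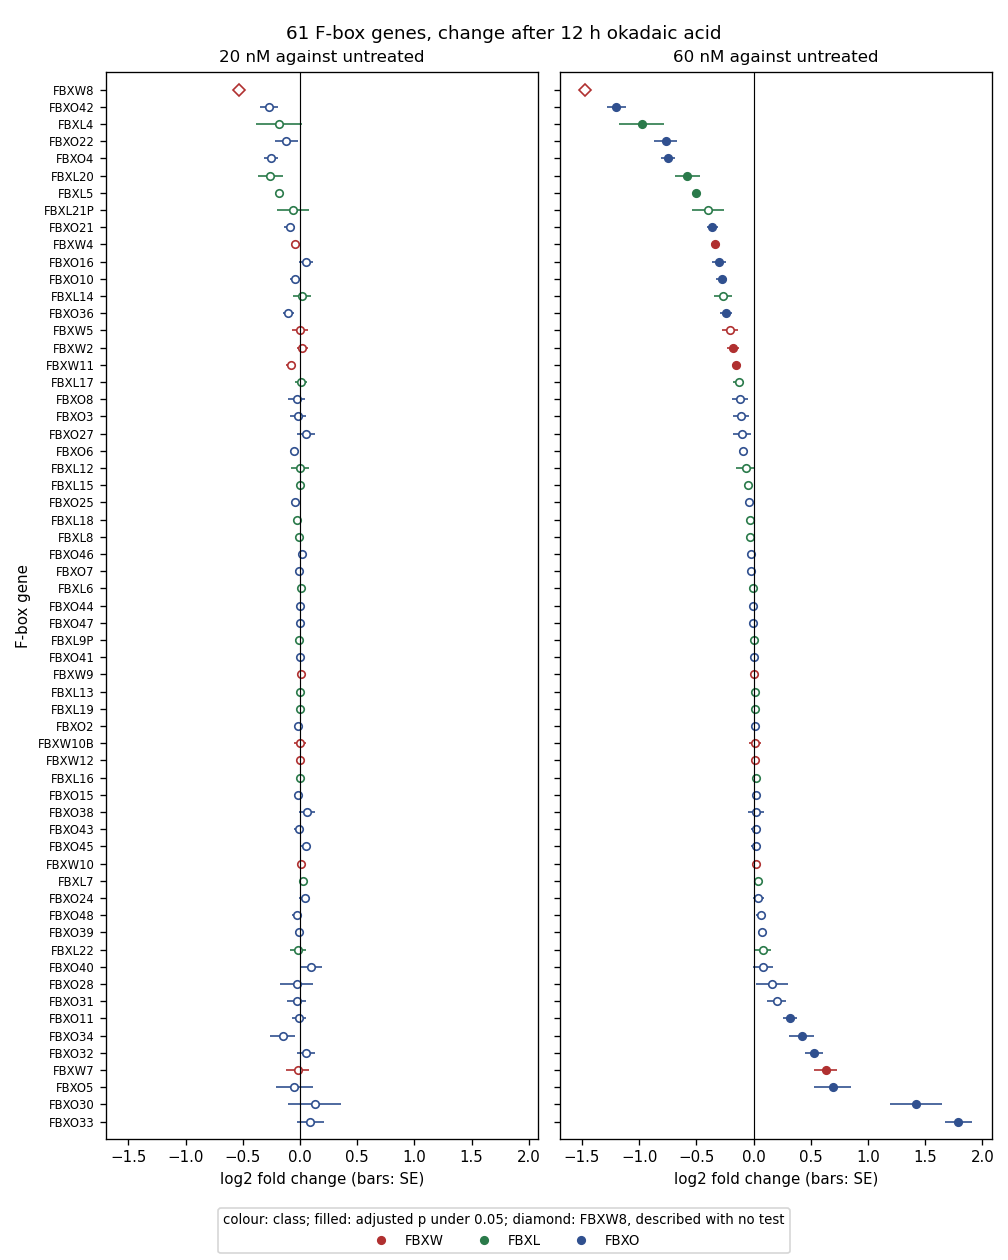
Log2 fold change of each of the 61 F-box genes (rows) at 20 nM (left) and 60 nM (right) okadaic acid against untreated cells, with SE as bars, filled points for limma adjusted p under 0.05 and colours for the FBXW, FBXL and FBXO classes. At 20 nM all genes but FBXW8 lie between -0.27 and 0.13, and at 60 nM the called genes run from -1.47 (FBXW8, open diamond, no test) to 1.79 (FBXO33).

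FBXW8 is the substrate receptor of the ligase built on cullin 7, with SKP1 as its adaptor. Its log2 intensity was 8.12, 8.14 and 8.08 in untreated cells, 7.56, 7.64 and 7.56 at 20 nM, and 6.59, 6.74 and 6.61 at 60 nM. The 3 groups were stepped without overlap. The log2 difference was -0.53 at 20 nM and -1.47 at 60 nM against untreated cells, where 60 nM was 2.77-fold lower, and -0.94 for 60 nM against 20 nM. CUL7, which encodes its cullin partner, had 7.17, 7.14 and 7.25 at 60 nM, against 7.32, 7.34 and 7.60 in untreated cells (log2 fold change -0.23, SE 0.07, limma adjusted p = 0.0675). FBXO21 lies near FBXW8 on chromosome 12, with 1 gene between them. It fell at 60 nM to 8.92, 8.79 and 8.78, against 9.19, 9.21 and 9.18 in untreated cells (log2 fold change -0.36, SE 0.05, adjusted p = 0.00173), and had 9.06, 9.19 and 9.06 at 20 nM.

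Promoters of the members that changed at least 2-fold at 60 nM are shown, because these members carry the family's widest range in both directions. Over all genes 3.42% were called at that size, and 4 members were: FBXW8, FBXO42, FBXO30 and FBXO33, the last named without a sequence. Each line gives the 250 bases before the gene's start in RefSeq (build GRCh38.p14), and capitals mark matches to the motifs searched. FBXW8 lies at chr12:116910700-116910949 on the plus strand, FBXO42 at chr1:16352481-16352730 on the minus strand and FBXO30 at chr6:145814796-145815045 on the minus strand.
FBXW8: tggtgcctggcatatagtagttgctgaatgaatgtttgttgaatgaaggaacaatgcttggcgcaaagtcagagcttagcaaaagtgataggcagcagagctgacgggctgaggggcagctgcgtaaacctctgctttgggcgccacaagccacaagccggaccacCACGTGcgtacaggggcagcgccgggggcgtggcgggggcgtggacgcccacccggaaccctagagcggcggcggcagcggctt
FBXO42: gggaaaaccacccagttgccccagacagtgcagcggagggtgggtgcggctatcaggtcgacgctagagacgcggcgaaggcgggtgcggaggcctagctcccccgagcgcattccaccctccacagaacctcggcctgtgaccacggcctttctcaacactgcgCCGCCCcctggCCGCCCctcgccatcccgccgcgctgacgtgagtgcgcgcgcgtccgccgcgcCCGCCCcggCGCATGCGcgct
FBXO30: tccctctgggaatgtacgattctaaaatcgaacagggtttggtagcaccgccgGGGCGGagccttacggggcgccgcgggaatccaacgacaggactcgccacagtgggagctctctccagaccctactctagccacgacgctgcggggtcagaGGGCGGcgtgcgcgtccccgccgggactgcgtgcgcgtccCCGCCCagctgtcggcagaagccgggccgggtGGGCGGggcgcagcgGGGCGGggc
The motifs, searched on both strands, were CRE (TGACGTCA), AP-1 (TGANTCA), the E-box (CACGTG), NF-Y (CCAAT), the GC box (GGGCGG), the TATA box (TATAAA), NRF1 (CGCATGCG) and ETS (CCGGAAGT), and no matches overlapped in these 3 windows. The FBXW8 window holds 1 E-box. The FBXO42 window holds 3 GC boxes and, just before the start, an NRF1 match, and the FBXO30 window holds 5 GC boxes. A member was counted if any of its promoters matched, whereas the 35116 promoters, of 27305 symbols, were counted singly. These units are unlike, which can raise the members' share, and nothing is read from the difference. Of 46 members with a promoter in the table, 34 (73.9%) hold a GC box, against 42.6% of promoters. The E-box occurs in 4 members (8.7%), against 6.3% of promoters, and NRF1 matches in 3 (6.5%), against 1.7%. CRE matches occur in 2 (4.3%), against 1.6%, and NF-Y in 15 (32.6%), against 32.0%. The TATA box occurs in 6 (13.0%), against 10.7%, ETS in 4 (8.7%), against 3.4%, and AP-1 in 0, against 6.6%. The members' promoters also had a higher GC content, with a median of 66.4% against 58.0% for all promoters. A match describes these letters only.

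The genes that fell with FBXW8 at 60 nM were led by FBXO42, whose protein binds p53. FBXO42 had 8.64, 8.82 and 8.80 in untreated cells, 8.46, 8.52 and 8.46 at 20 nM, and 7.51, 7.42 and 7.73 at 60 nM. Every array at 60 nM was below every other array, and the fall was 2.30-fold (log2 fold change -1.20, SE 0.08, limma adjusted p = 9.75e-05). The difference at 20 nM was -0.27 (SE 0.08, adjusted p = 0.785). FBXO22, a receptor that marks histone demethylases and other nuclear proteins for degradation, had 8.33, 8.24 and 8.28 in untreated cells, 8.08, 8.32 and 8.08 at 20 nM, and 7.51, 7.33 and 7.67 at 60 nM. It was lower at 60 nM by a log2 fold change of -0.77 (SE 0.10, adjusted p = 0.00136), and at 20 nM its arrays overlapped those of untreated cells.

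Among the FBXL genes, 3 of 17 (17.6%) were called lower at 60 nM and 0 higher, a share near the 21.2% of all genes. FBXL4, a mitochondrial F-box protein that restrains mitophagy, had 8.65, 8.30 and 7.97 in untreated cells, 7.97, 8.43 and 7.97 at 20 nM, and 7.48, 7.20 and 7.30 at 60 nM. All arrays at 60 nM were below the others, with a log2 fold change of -0.98 against untreated cells (SE 0.20, adjusted p = 0.011). FBXL20, known from mouse as a receptor for a presynaptic scaffold protein, had 9.97, 9.97 and 10.41 in untreated cells, 9.86, 9.87 and 9.85 at 20 nM, and 9.53, 9.46 and 9.62 at 60 nM. Its fall against untreated cells was 0.58 on the log2 scale (log2 fold change -0.58, SE 0.11, adjusted p = 0.0101), while the step between the doses was -0.32 (adjusted p = 0.108). The call against untreated cells ended with a chromosome score as covariate and with a fit of only the 6 arrays compared (adjusted p of at most 0.0781).

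FBXL5 is the iron-sensing receptor that directs the degradation of iron regulatory proteins. It had 7.32, 7.30 and 7.21 in untreated cells, 7.10 on all 3 arrays at 20 nM, and 6.79, 6.78 and 6.77 at 60 nM. The 60 nM fall was -0.50 (SE 0.03, adjusted p = 5.25e-05), and the 20 nM difference was -0.18 (SE 0.03, adjusted p = 0.233). FBXO4, a receptor for cyclin D1, also stepped down, with 5.98, 6.20 and 6.22 in untreated cells, 5.88 on all 3 arrays at 20 nM, and 5.39, 5.33 and 5.42 at 60 nM. Its log2 fold change at 60 nM was -0.75 (SE 0.06, adjusted p = 0.000194), and the value there lay at background. Such repeats of 1 value are frequent in the table: 39 of 61 members and 12364 of 22465 genes had 3 or more arrays at the same value to 4 decimals, which can make an SE too small. Replicates 1 and 3 at 20 nM had equal values for 23 members (37.7%), against 19.2% of all genes. Of the 21 members called at 60 nM, 6 had 3 or more arrays at the same value.

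Smaller falls at 60 nM passed the test in 6 further members. FBXW4, the gene at a split hand and foot malformation locus, had 6.71, 6.75 and 6.72 at 60 nM, against 7.02, 7.09 and 7.10 in untreated cells (log2 fold change -0.34, adjusted p = 0.000224). FBXO16 fell by 0.30, FBXO10, known as a receptor for BCL2, by 0.28, and FBXO36 by 0.24 on the log2 scale (adjusted p = 0.00887, 0.00423 and 0.015). The smallest were FBXW2 (-0.18, adjusted p = 0.0436) and FBXW11 (-0.15, adjusted p = 0.0451). FBXW11 is also known as beta-TrCP2, which binds phosphorylated beta-catenin and inhibitors of NF-kappa-B. These were the calls just inside the threshold, and the call for FBXW2 ended on leaving out any array but 20 nM replicate 2 (adjusted p of 0.0545 to 0.138), that for FBXW11 on leaving out any array but untreated replicate 1 and 60 nM replicate 1 (0.0683 to 0.137). Just outside were FBXL14 (-0.27, adjusted p = 0.054), a receptor for the repressor SNAI1, and FBXW5 (-0.21, adjusted p = 0.0647). The pseudogene FBXL21P had -0.40 (SE 0.14, adjusted p = 0.0836).

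**Figure D2:**
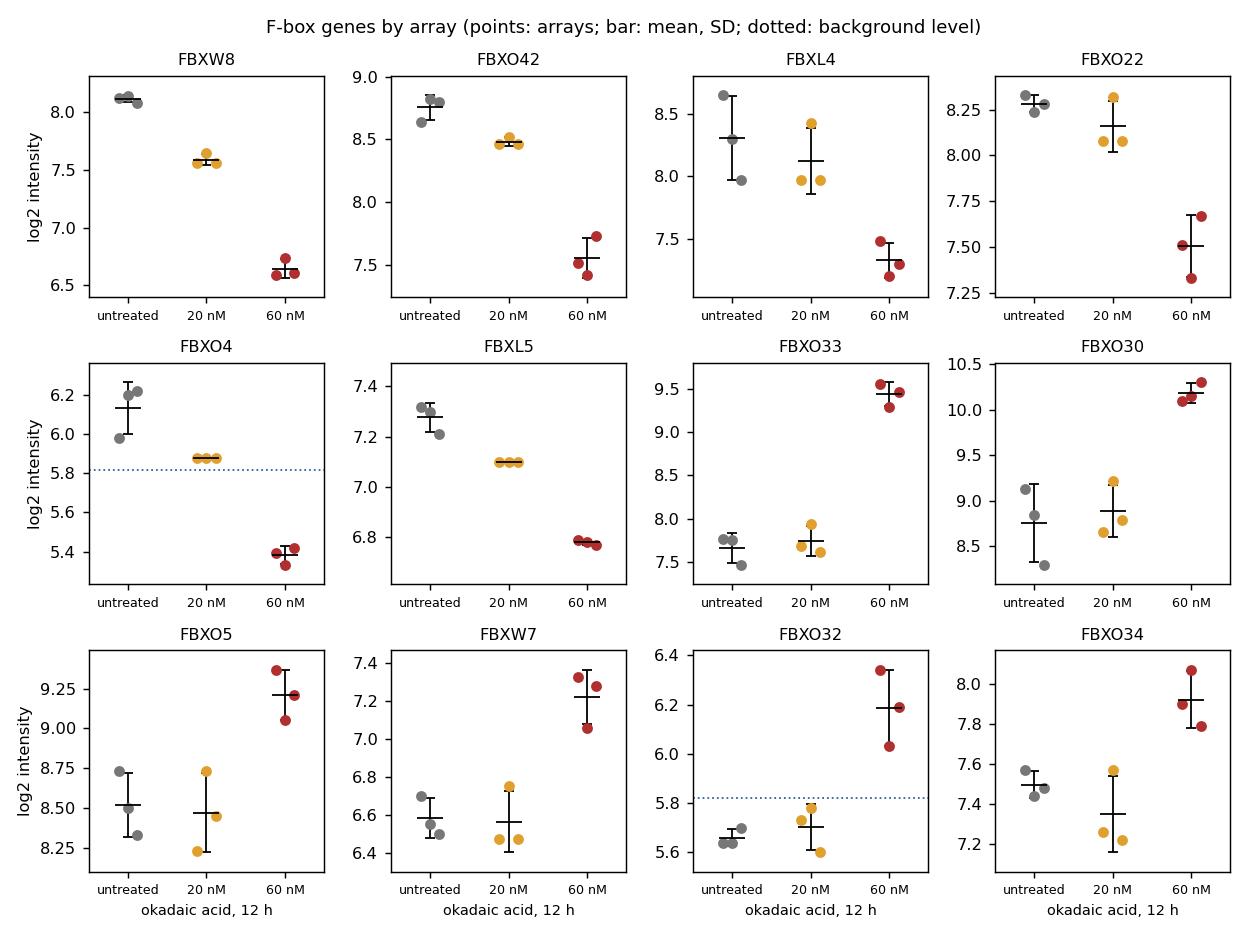
Log2 intensity of 12 F-box genes on each array (points) of untreated cells and cells at 20 nM and 60 nM okadaic acid, with the mean and SD of 3 arrays, each panel on its own scale and the background level of 5.82 dotted where it falls within the panel. In FBXW8, FBXO42, FBXO4 and FBXL5 the arrays at 20 nM lie between the other groups, whereas in FBXO33, FBXO30, FBXO5, FBXW7, FBXO32 and FBXO34 the arrays at 20 nM overlap the untreated ones and those at 60 nM stand above.

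The rises at 60 nM were fewer and included the largest change of the family. FBXO33, known as a receptor for the Y-box protein YBX1, had 7.76, 7.75 and 7.46 in untreated cells, 7.68, 7.94 and 7.61 at 20 nM, and 9.56, 9.29 and 9.47 at 60 nM. The arrays of untreated cells and of 20 nM overlapped, and those of 60 nM lay far above both. The rise was 3.45-fold (log2 fold change 1.79, SE 0.12, limma adjusted p = 8.14e-05), and 60 nM exceeded 20 nM by 1.70 (adjusted p = 0.000171). FBXO30, known from mouse for roles in muscle wasting and in mammary development, had 9.13, 8.84 and 8.29 in untreated cells, 8.66, 9.21 and 8.79 at 20 nM, and 10.09, 10.15 and 10.30 at 60 nM. Its untreated arrays were spread more widely than the 60 nM ones, and the rise was 2.68-fold (log2 fold change 1.42, SE 0.23, adjusted p = 0.00386).

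FBXO5, or EMI1, inhibits the anaphase-promoting complex and so protects cyclins from degradation before mitosis. It had 8.73, 8.50 and 8.33 in untreated cells, 8.23, 8.73 and 8.45 at 20 nM, and 9.37, 9.05 and 9.21 at 60 nM, with a log2 fold change of 0.69 (SE 0.16, adjusted p = 0.0183). That call ended without untreated replicate 2 or 3 or without 60 nM replicate 1 or 3 (adjusted p of 0.058 to 0.066). FBXW7, the receptor for phosphorylated cyclin E, MYC and JUN, had 6.70, 6.55 and 6.50 in untreated cells, 6.47, 6.75 and 6.47 at 20 nM, and 7.33, 7.06 and 7.28 at 60 nM. It was the only FBXW gene of the 10 called higher, with a log2 fold change of 0.63 (SE 0.10, adjusted p = 0.00445).

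FBXO32, or atrogin-1, is known for its induction in wasting muscle. It was at background in untreated cells, at 5.64, 5.64 and 5.70, and at 20 nM, at 5.73, 5.78 and 5.60, and reached 6.34, 6.03 and 6.19 at 60 nM (log2 fold change 0.53, SE 0.08, adjusted p = 0.00329). FBXO11, a receptor for the repressor BCL6, had 9.13, 9.14 and 9.10 at 60 nM, against 8.89, 8.82 and 8.69 in untreated cells (0.32, SE 0.06, adjusted p = 0.00782). FBXO34 had 7.90, 8.07 and 7.79 at 60 nM, against 7.57, 7.44 and 7.48 in untreated cells (0.42, SE 0.11, adjusted p = 0.032). This call is the less firm of the 3: it ended without any 1 untreated replicate or 60 nM replicate 1 or 2 (adjusted p of 0.0521 to 0.104), and a further probe set of FBXO34 read 6.44 or 6.45 on every array.

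Most of the family did not pass the test at 60 nM: 40 members had log2 changes of -0.40 to 0.20, and 19 of them were above background. The brightest members were FBXO7, FBXL20 and FBXO28. FBXO7, which is mutated in a form of inherited parkinsonism, had 11.19 ± 0.00 at 60 nM and 11.21 ± 0.05 in untreated cells (SD, n = 3 each), with a 95% interval of the log2 change of -0.09 to 0.05. FBXO28 had 10.23 ± 0.11 at 60 nM and 10.07 ± 0.12 in untreated cells (SD, n = 3 each), with an interval of -0.17 to 0.50. FBXO31, a receptor for cyclin D1 as FBXO4 is, had groups that did not overlap and a log2 change of 0.20 (adjusted p = 0.133). FBXL12, FBXL17, FBXL18, FBXL19, FBXO3, FBXO6, FBXO8, FBXO25, FBXO27, FBXO38, FBXO44, FBXO45 and FBXO46, the rest of those above background, had log2 changes of -0.13 to 0.02.

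Between the doses, 18 of the 60 members other than FBXW8 (30%) differed for 60 nM against 20 nM, 7 higher and 11 lower, and 19 with it. Over all genes 17.8% were called, 6.94% higher and 10.9% lower. Among the 9784 genes with a mean of all arrays above background, 34.7% were called, 12.5% higher and 22.2% lower. Of the 38 members above background by that mean, FBXW8 included, 17 were called (44.7%), 18.4% higher and 26.3% lower. Groups did not overlap for 25 of the 60 members other than FBXW8, and for 26 of 61 with it. Over all genes 31.2% had such groups, as did 5510 of the 9784 above background. Of the 38 members above background by the same mean, FBXW8 included, 24 did. The 7 higher were FBXO33, FBXO30 (1.29, adjusted p = 0.00764), FBXO5 (0.74, adjusted p = 0.0168), FBXW7 (0.66, adjusted p = 0.00485), FBXO34 (0.57, adjusted p = 0.0111), FBXO32 (0.48, adjusted p = 0.00628) and FBXO11 (0.33, adjusted p = 0.00878). Among the lower ones, FBXO42 differed by -0.93 (adjusted p = 0.000443), FBXL4 by -0.80 (adjusted p = 0.0306) and FBXO22 by -0.65 (adjusted p = 0.0038). The call for FBXL4 here ended on leaving out any of 7 arrays (adjusted p of 0.0567 to 0.103), all but untreated replicates 1 and 3. That for FBXO5 ended without 20 nM replicate 1 or 3 or 60 nM replicate 1 or 3 (adjusted p of 0.0534 to 0.0603), and in 7 of 20 alternatives in all. FBXL14 was called in this comparison alone (-0.29, adjusted p = 0.0498), and its call ended in 13 of 20 alternatives. Over the 3 groups together, limma's F test called 18 of the 60 members, and 19 with FBXW8, against 18.5% of all genes. Fitted to only the genes above background in at least 1 group, it called 21 of 40 members, FBXW8 included, against 42.1% of those genes.

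The partners that F-box proteins work with changed in both directions at 60 nM. Of 28 genes listed for the SCF core, neddylation and ubiquitin conjugation, 22 were measured and 9 were called (40.9%), 4 higher and 5 lower. That share was near the 40.5% of all genes above background, a level that 21 of the 22 passed in at least 1 group, and above the 21.2% of all genes. SKP1, the adaptor that every F-box protein binds, had 8.92, 9.07 and 8.93 in untreated cells, 8.88, 9.15 and 9.04 at 20 nM, and 9.93, 9.76 and 9.88 at 60 nM (log2 fold change at 60 nM 0.88, SE 0.08, adjusted p = 0.00029). CDC34, a ubiquitin-conjugating enzyme of SCF ligases, had 10.95, 10.52 and 10.88 at 60 nM, against 9.33, 9.39 and 9.60 in untreated cells (1.34, SE 0.17, adjusted p = 0.00121). UBE2R2, the close relative of CDC34, went the other way, with 11.26, 11.24 and 11.33 at 60 nM, against 11.65, 11.90 and 12.28 in untreated cells (-0.67, SE 0.15, adjusted p = 0.0201). The call for UBE2R2 ended without untreated replicate 2 or without any 1 of the 60 nM replicates (adjusted p of 0.0531 to 0.0683).

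In the NEDD8 pathway, UBA3, the catalytic subunit of the NEDD8-activating enzyme, fell to 9.24, 9.14 and 9.21 at 60 nM, against 10.14, 10.24 and 9.92 in untreated cells (-0.91, SE 0.09, adjusted p = 0.000376). DCUN1D3, whose protein acts in cullin neddylation, rose by 0.82 (SE 0.10, adjusted p = 0.00116). UBE2G1 rose by 0.28 (adjusted p = 0.004), and the RING subunit gene RNF7 (-0.36, adjusted p = 0.023) and the NEDD8 protease gene SENP8 (-0.28, adjusted p = 0.0474) were lower, as was CAND2 at background. The call for RNF7 ended without untreated replicate 2 or 3 or 60 nM replicate 2 or 3, that for SENP8 without any array but untreated replicate 3, and that for CAND2 without any array but untreated replicate 1 and 60 nM replicate 1. The scaffold CUL1 had 11.06 ± 0.03 at 60 nM and 11.01 ± 0.03 in untreated cells (SD, n = 3 each, adjusted p = 0.386). Of the 9 COP9 signalosome genes, all above background, 3 were called (33.3%, below the 40.5% of genes above background), COPS8 higher (0.29, adjusted p = 0.0263) and GPS1 (-0.51, adjusted p = 0.0119) and COPS7B (-0.31, adjusted p = 0.00364) lower. The call for COPS8 ended on leaving out untreated replicate 2 or any 1 of the 60 nM replicates (adjusted p of 0.0618 to 0.0893).

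**Figure D3:**
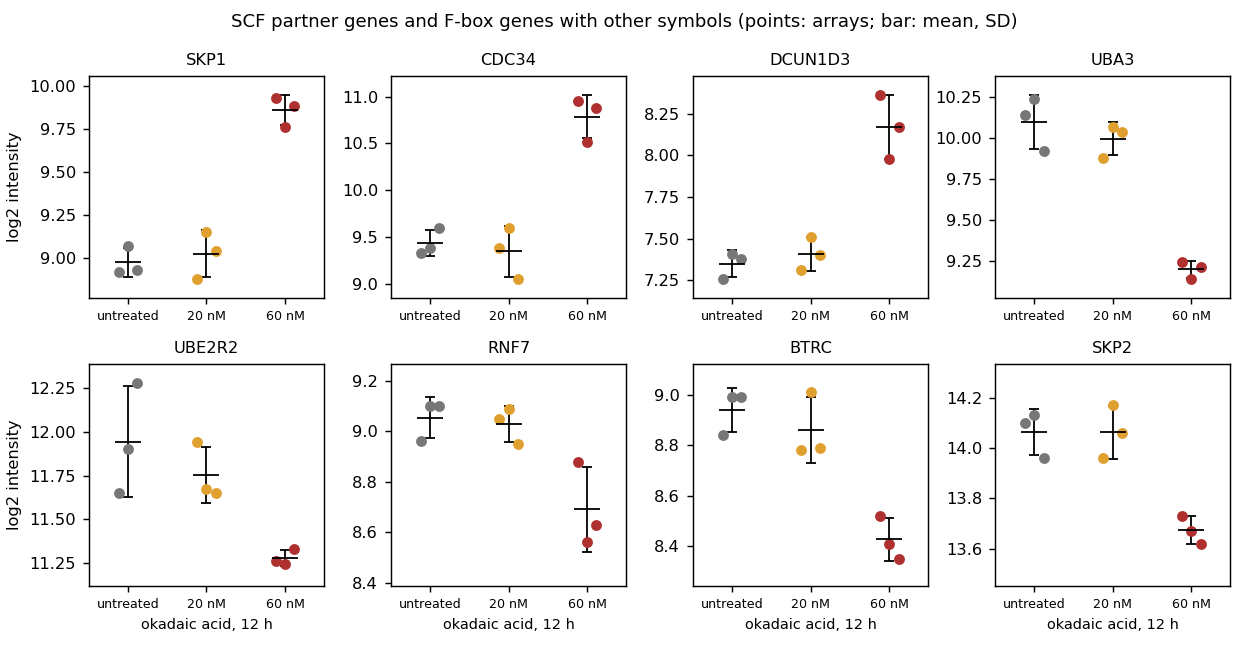
Log2 intensity on each array (points) of 6 genes of the SCF core and its partners and of the F-box genes BTRC and SKP2, with the mean and SD of 3 arrays per group, each panel on its own scale. SKP1, CDC34 and DCUN1D3 are higher at 60 nM than in untreated cells and UBA3, UBE2R2, RNF7, BTRC and SKP2 are lower, with the 20 nM arrays near the untreated ones.

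F-box proteins that carry other symbols were listed separately, and 5 of the 10 measured were called at 60 nM, 1 higher and 4 lower, where 21.2% of all genes and 40.5% of those above background were called and 8 of the 10 were above background. BTRC, the paralog of FBXW11, had 8.52, 8.41 and 8.35 at 60 nM, against 8.84, 8.99 and 8.99 in untreated cells (log2 fold change -0.51, SE 0.08, adjusted p = 0.00331). SKP2, the receptor for the cell cycle inhibitor p27, had 13.73, 13.67 and 13.62 at 60 nM, against 14.10, 14.13 and 13.96 in untreated cells (-0.39, SE 0.07, adjusted p = 0.00545). FBH1, a DNA helicase with an F-box, and TSPAN17 were lower (-0.34 and -0.20), and the histone demethylase KDM2A was higher (0.24, adjusted p = 0.0249). The call for KDM2A ended without untreated replicate 1 or 2 or 60 nM replicate 1 or 3, and that for FBH1 without untreated replicate 2 or 3 or 60 nM replicate 2 or 3. CCNF, or cyclin F, had 0.13 (adjusted p = 0.531).

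Substrate receptors of other cullins were set beside the family. At 60 nM, 14 of 35 KLHL genes, receptors of cullin 3 ligases, were called, 8 higher and 6 lower, and 8 of 13 DCAF genes, receptors of cullin 4 ligases, were called, 1 higher and 7 lower. These are 40% of KLHL genes, of which 17 were above background, and 61.5% of DCAF genes, all of them above background, against 21.2% of all genes and 40.5% of those above background. The median log2 change was 0.02 for KLHL and -0.31 for DCAF, against -0.01 for the F-box genes. KLHL15 had the largest rise of these (1.69, adjusted p = 0.00062) and DCAF7 the largest fall (-1.02, adjusted p = 0.00111). Limma called 0 genes of any of these partner and receptor lists at 20 nM, against 0.0223% of all genes. At that dose 3 of 35 KLHL and 2 of 13 DCAF genes had an unadjusted p under 0.05, and 0 of the others did. Over all genes 4.98% had such a p, and nothing is read from these counts.

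**Figure D4:**
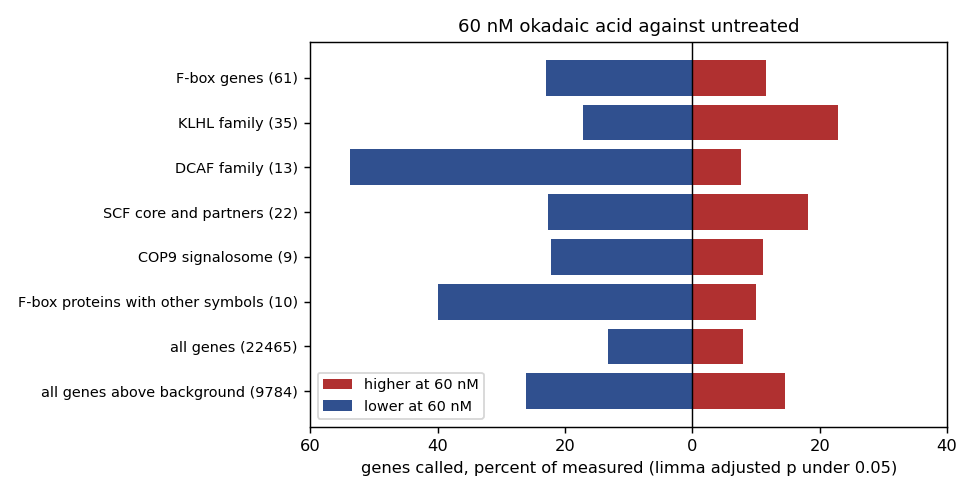
Percent of measured genes called higher (red, right) and lower (blue, left) at 60 nM okadaic acid against untreated cells by limma at adjusted p under 0.05, for F-box genes, other ubiquitin ligase lists, all genes and genes above background, with the number measured in brackets. Of the F-box genes, FBXW8 included, 11.5% were higher and 23.0% lower, against 7.94% and 13.2% of all genes. Of the genes above background 14.5% were higher and 26.1% lower. Of the 38 F-box genes with a mean of all arrays above background, not drawn, 18.4% were higher and 34.2% lower.

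Some measures of the arrays themselves differed at 60 nM. The array medians were 4.45, 4.51 and 4.46 at 60 nM, against 4.42, 4.43 and 4.43 in untreated cells (exact two-sided permutation p = 0.1, the smallest that 3 against 3 arrays allow). A score of genes on gene-dense against gene-poor chromosomes lay between -0.11 and -0.03 at 60 nM and between -0.01 and 0.12 in untreated cells (exact p = 0.1). At 20 nM the medians were 4.48, 4.36 and 4.47 and the score lay between 0.00 and 0.04 (exact p = 1 and 0.8 against untreated cells). The hybridisation controls did not separate at 60 nM, at 9.93, 9.44 and 9.74, against 9.58, 9.65 and 9.90 in untreated cells (exact p = 1). Their part in the F-box counts was tested only by refits. With equal array medians 18 members were called at 60 nM, 6 higher and 12 lower, against 18.9% of all genes. With the chromosome score as a covariate 11 members were called at 60 nM, 3 higher and 8 lower, against 12.2% of all genes, and the calls for FBXL20, FBXO10, FBXO11, FBXO16, FBXO34, FBXO36, FBXO5, FBXW11, FBXW2 and FBXW7 ended. Shifting each array by its hybridisation controls left 10, 4 higher and 6 lower, against 10% of all genes, and ended the calls for FBXL5, FBXO10, FBXO11, FBXO16, FBXO21, FBXO32, FBXO34, FBXO36, FBXW11, FBXW2 and FBXW4. These 3 counts include FBXW8. Of the other 60 members, FBXO33, FBXO30, FBXO42, FBXL4, FBXO22 and FBXO4 were called at 60 nM in every alternative that could be run for them, and no called member changed direction in any. At 60 nM 3 noradrenergic markers (GATA2 and ISL1 higher, GATA3 lower), 4 mesenchymal ones (3 higher, among them CD44) and 0 epithelial ones were called, and their part in the result was not tested. ISL1 was at background in all groups, as was PRRX1, the mesenchymal marker called lower.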

How the data were processed

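RNA of 9 arrays, 3 per group, was measured as biotin-labelled cRNA. The deposited table gives a linear intensity for each of 70523 probe sets and each array, made by RMA per the submitters' processing notes. Any later transformation is not given in the sources used here. RMA equalises array distributions and can thereby hide a change shared by most genes. The design had foreseen log2 or linear values, and log2 was taken with no added constant. Genes were named by the platform annotation (1 symbol, 23781 probe sets; 1543 had several) and each of 22465 genes kept its brightest probe set. The members and gene lists were chosen with earlier results of these data known. Members chosen to be described with their own values are those called in any contrast and above background, the 3 brightest, and those just inside or outside the threshold at 60 nM. FBXO31 and the pseudogene FBXL21P were added outside this rule, and the other members are named without changes of their own. KLHL15 and DCAF7 and the markers named were picked after their values were seen.

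R 4.3.3 with limma 3.58.1 fitted all 9 arrays in 1 model with a term per group and moderated variances without trend. Each contrast and the F test used Benjamini-Hochberg adjustment over all genes, with 0.05 as threshold. The fit was tested on simulated data. Single array values were compared by exact permutation tests. Alternatives were another log offset, other scalings, a chromosome score as covariate, probe set means, only brighter genes, genes without repeated values, trend with robust fitting, 6 arrays per contrast, a replicate block and leaving out each array. RefSeq promoters (GRCh38.p14) were matched by symbol for 46 members. Figures were drawn with matplotlib 3.10.9.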

Additional observations from a re-analysis of the deposited data

How the results depend on the processing

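The count of F-box genes past the threshold at 20 nM (1) is FBXW8 alone, the gene that chose the family, so its changes are given as values only and test nothing. It was 0 with equal array medians, quantile normalization, the shift by hybridisation controls, the replicate block and the fit of only the 6 arrays compared, and 0 to 2 on leaving out 1 array. Over the other 60 members it was 0 as reported and in every alternative but 1, that without untreated replicate 3, which called FBXL5. With FBXW8 included, the count at 60 nM (21) was 10 with the hybridisation control shift and 11 with the chromosome score, and 17 to 21 on leaving out 1 array. For 60 nM against 20 nM (19) leaving out 1 array gave 15 to 20. The F test (19) gave 9 with the shift and 8 with the score, and 13 to 19 on leaving out 1 array. The shift raised the median change of all genes at 20 nM to 0.29 and the median SE of the members to 0.204, from 0.0458. The shift moves all genes of an array by the same amount. FBXW8, with a change of -0.24 under it, therefore keeps its distance from the median of all genes by construction, which tests nothing. For the score the cause was not tested. Under the score FBXO5 had 0.52 (adjusted p = 0.254). Of the 20 other members called at 60 nM, 6 kept the call in each alternative that could be run for them, 14 lost it in at least 1, and 0 reversed. Of the 40 partner and receptor genes called at 60 nM, 13 kept the call and 0 reversed. The hybridisation control shift ended 23 of these calls, among them those for BTRC, SKP2, TSPAN17, UBE2G1, GPS1 and COPS7B. With the score the calls for BTRC, TSPAN17, GPS1 and COPS7B ended too. Replicate numbers did not pair the arrays: 1 of 9 same-numbered pairs correlated over 0.1, against 8 of 18 with different numbers, and with the number as a block 17 members were called at 60 nM, 15 between the doses and 16 by the F test. The alternative without repeated values left 22 members. The small number of arrays and the signal over background limit the dim members.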

Other observations

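A probe set shared by FBXO17 and SARS2, which neither gene can be credited with, read 7.93, 8.01 and 8.15 in untreated cells, 7.66, 7.88 and 7.66 at 20 nM, and 7.15, 6.99 and 6.68 at 60 nM. Its 3 groups did not overlap, and it was in no test. A probe set shared by HSF4 and FBXL8 stayed at background, with means of 4.22 in untreated cells, 4.24 at 20 nM and 4.23 at 60 nM. The antisense gene FBXL19-AS1 and the pseudogene FBXW4P1 were also at background on every array, with means at 60 nM of 5.10 and 5.44, against 5.07 and 5.28 in untreated cells.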
